A study of Mus musculus with 10 samples.

Results

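A set of 10 genes that mark the macrophages living in heart tissue was followed across the walls of the mouse heart, namely Csf1r, Adgre1, Fcgr1, Mrc1, Cd163, Lyz2, Mertk, Lyve1, Timd4 and Folr2. They were found through the RefSeq accession that the array files give for each probe, and they are 10 of the 22911 genes that could be named in this way. The samples were pieces of hearts from C57BL/6N mice, with no genetic change or treatment named in the labels, and their age and sex are not given in the sources used here. Cold saline was run through the chambers of the killed animals before the pieces were frozen. The series holds 4 right ventricle (RV), 3 left ventricle (LV) and 3 ventricular septum arrays, and each is a single-colour Agilent array of total RNA of 1 whole piece of wall, so all cell types of the wall contribute. The series' design text says that different individuals were used for each experiment, and the labels do not say whether pieces with the same number came from 1 heart. If they do not come from separate animals, the p-values measure only the spread between these samples.

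Tissue macrophages are phagocytes that settle in the heart before birth and renew themselves there, with a further share replaced by blood monocytes. They clear dying cells and debris, present antigen and support the conduction and repair of the muscle. A long-lived resident group carries Lyve1, Timd4 and Folr2, whereas monocyte-derived cells tend to carry the chemokine receptor Ccr2.

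The arrays were spread over 2 slides. Arrays 1 and 2 of each region shared slide 1, and the other RV arrays (3 and 4), the third LV array and the third septum array shared slide 2. Between 53.7% and 64.0% of the spots of an array were well above background and 0 were saturated. The number of arrays limits the precision of each value. Slide and level went together for many genes: with region in the model, 6 of the 10 markers differed between the slides at an adjusted p below 0.05 (limma), against 45.3% of all genes. Of these, Mrc1, Lyz2, Lyve1, Timd4 and Folr2 were lower on slide 2 and Mertk was higher there. Slide held over 1 region, so values with slide as a block and within each slide stand beside the results below.

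All 10 markers were measured. The array carried 13 probes for them, each gene had a probe well above background on all 10 arrays, and the brightest probe of a gene was used. A level is the log2 signal minus the 75th percentile of its array, so 0 stands for that percentile, and a difference of 1 is a 2-fold one. Levels of different probes are not compared. In the comparison without a block, 0 of 10 markers passed an adjusted p of 0.05 (limma, Benjamini-Hochberg over all probes tested) between RV and LV, where 4.98% of the 14650 genes tested passed. Between RV and septum 0 of 10 passed, against 2.7% of genes, and between septum and LV 0 of 10 passed, against 0% of genes. At an unadjusted p below 0.05 the counts were 4, 4 and 0 markers, against 22.8%, 16.3% and 2.91% of genes. The 4 were Csf1r, Adgre1, Cd163 and Folr2 against LV, and Csf1r, Cd163, Lyve1 and Folr2 against septum.

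The markers nevertheless lay on the same side. For each of the 10 the RV mean exceeded the LV mean and the septum mean, whereas 39.4% and 40.8% of all genes had a difference above 0. The median difference of the markers was 0.32 for RV minus LV and 0.30 for RV minus septum, beside medians over all genes of -0.05 and -0.04. Between septum and LV the median difference was 0.0032, and 5 of the 10 were higher in septum, against 41.8% of all genes. In tissue RNA of this kind, fewer cells of a type and less RNA per cell cannot be told apart. All comparisons with RV share the same RV arrays.

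With slide as a block, 4 of 10 markers were higher in RV than in LV at an adjusted p below 0.05 (Csf1r, Lyve1, Timd4 and Folr2), against 21.3% of genes called in either direction and 8.82% called higher. Between RV and septum, 5 of 10 were higher in RV (the same 4 genes and Cd163), against 11.1% of genes called and 5.34% called higher. Between septum and LV, 0 of 10 were called with this block, against 0.0751% of genes. With the replicate number as a block, 5 markers were called higher in RV than in LV (Csf1r, Cd163, Lyve1, Timd4 and Folr2), against 17.9% of genes, and 3 were called higher than in septum (Cd163, Lyve1 and Folr2), against 8.7%, while 0 were called between septum and LV, against 0%. The median difference of the markers between RV and LV was 0.31 within slide 1 and 0.52 within slide 2. Between RV and septum it was 0.22 within slide 1 and 0.65 within slide 2. Within either slide alone 0 markers passed limma's adjusted test in these comparisons, where 1.8% (RV against LV) and 1.52% (RV against septum) of genes passed on slide 1, and 1.39% and 0.99% on slide 2. At an unadjusted p below 0.05 there were 5 markers in each comparison on slide 1, against 25.8% and 18.9% of genes, and 7 in each on slide 2, against 17.2% and 14.3%. LV and septum had 1 array each on slide 2, so these tests assume that the lone arrays vary like the RV pair. Whether the difference between the slides was larger than the spread was not tested.

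**Figure D1:**
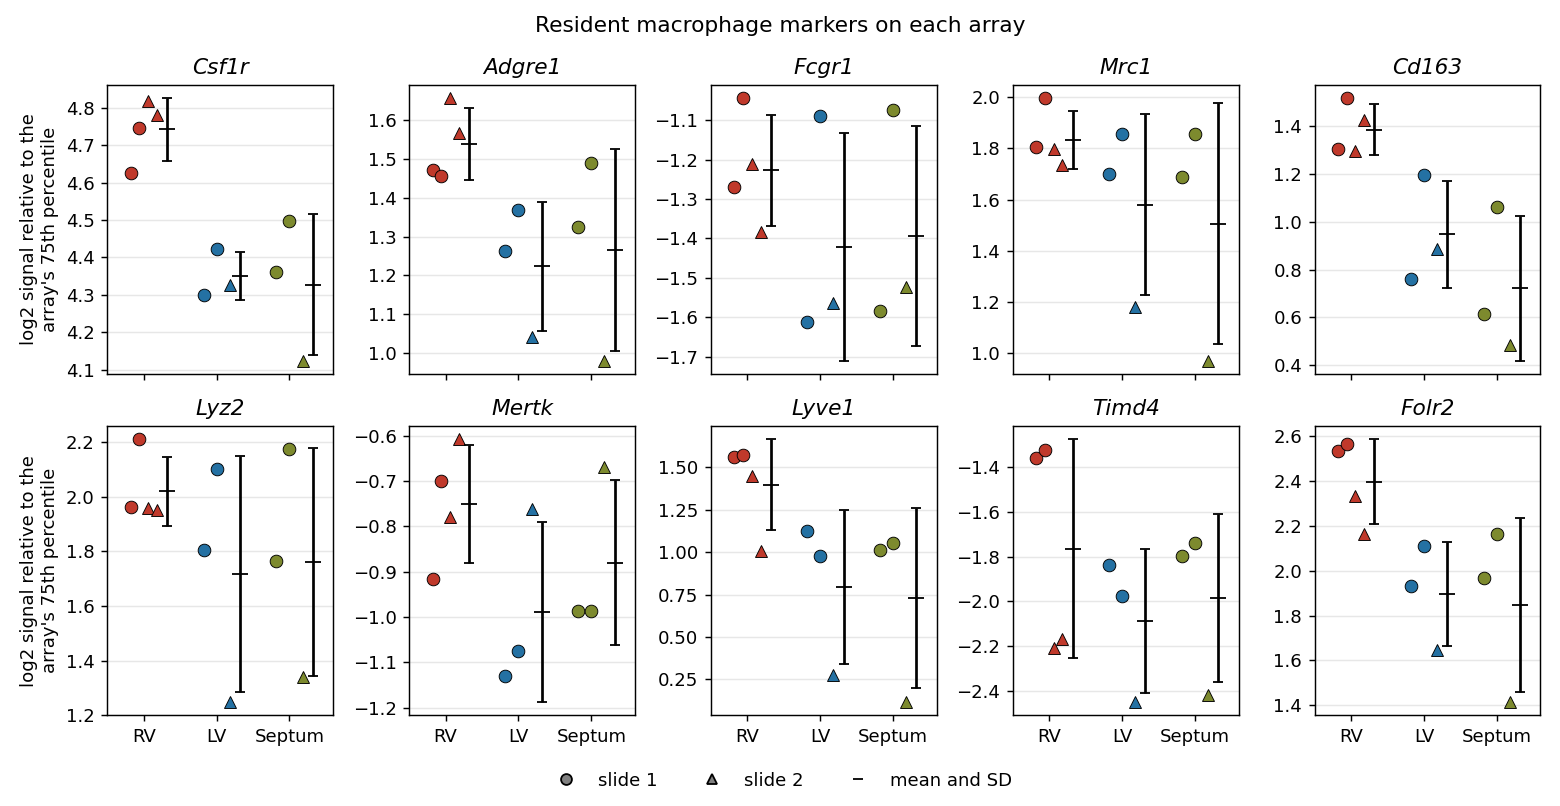
Level of each of the 10 macrophage markers on each array, as log2 signal relative to the array's 75th percentile, by region (x axis), with circles for slide 1, triangles for slide 2 and bars for the mean and SD of the region. Every RV array of Csf1r and Cd163 lies above every LV and septum array, and in 6 of the 10 panels the slide 2 arrays of LV and septum are the lowest of the 10 arrays.

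Csf1r, the receptor for the growth factors that keep macrophages alive, had the smallest SD within RV of the 10 (0.084). Its levels were 4.63, 4.75, 4.82 and 4.78 on RV arrays 1 to 4. On the LV arrays they were 4.30, 4.42 and 4.33, and on the septum arrays 4.36, 4.50 and 4.12. Each RV array lay above each LV and each septum array. The difference was 0.39 ± 0.098 (SE) for RV minus LV, or 1.31-fold, with an adjusted p of 0.0596 (limma), and with slide as a block it was 0.40 with an adjusted p of 0.0214. For RV minus septum it was 0.42, with an adjusted p of 0.0725 without a block and 0.0275 with slide as a block. Septum and LV differed by -0.02, with a 95% interval from -0.26 to 0.21. A second, dimmer Csf1r probe gave another picture: its RV minus LV difference was 0.07, with an interval from -0.23 to 0.37, and its RV minus septum difference was 0.00057. The probes of this gene therefore disagree, and which of them follows the transcript was not tested.

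Mertk, a receptor kinase through which macrophages take up dying cells, was the marker that least followed the others. Its levels on RV arrays 1 to 4 were -0.92, -0.70, -0.78 and -0.61. The LV levels were -1.13, -1.07 and -0.76, and the septum levels were -0.99, -0.99 and -0.67. The regions overlapped, and the highest LV and septum arrays were those of slide 2, the reverse of Adgre1, Mrc1, Lyz2, Lyve1, Timd4 and Folr2. The RV minus LV difference was 0.24 (adjusted p of 0.337) and the RV minus septum difference was 0.13 (adjusted p of 0.729). Within slide 2 the second of these was -0.02, the only difference from RV among the 10 markers and both slides that fell below 0.

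Adgre1 encodes an adhesion receptor, the classical surface marker of mouse macrophages. Its RV levels were 1.47, 1.46, 1.66 and 1.57. The LV levels were 1.26, 1.37 and 1.04, and those of septum were 1.32, 1.49 and 0.98. All RV arrays lay above all LV arrays, while septum array 2 lay among those of RV. The difference was 0.31 ± 0.13 (SE) for RV minus LV, with an adjusted p of 0.218, and 0.27 for RV minus septum, with an adjusted p of 0.389. Its values differed between slides: RV minus LV was 0.15 on slide 1 and 0.57 on slide 2. A second Adgre1 probe was not well above background on any array.

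Fcgr1, the high-affinity receptor for immunoglobulin G, had RV levels of -1.27, -1.04, -1.21 and -1.38. The LV levels were -1.61, -1.09 and -1.56, and the septum levels were -1.58, -1.07 and -1.52. The arrays with the number 2 were the highest of each region and lay close together, and the regions overlapped. Its RV minus LV difference was 0.19, the smallest of the 10, with an adjusted p of 0.575. Against septum it was 0.17, with an adjusted p of 0.737.

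Mrc1, the mannose receptor CD206, takes up glycoproteins and is also made by lymphatic and some other endothelium. It had RV levels of 1.81, 1.997, 1.80 and 1.73, LV levels of 1.70, 1.86 and 1.18, and septum levels of 1.69, 1.86 and 0.97. On slide 1 the regions lay close together, and on slide 2 both RV arrays lay well above LV and septum. The difference was 0.12 within slide 1 and 0.59 within slide 2 for RV minus LV, and 0.25 over all arrays, with an adjusted p of 0.587. For RV minus septum it was 0.33, with an adjusted p of 0.575.

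The promoters of Fcgr1 and Mrc1 are shown because, of the markers whose start regions could be read, they were the ones with the core letters bound by PU.1, the main transcription factor of macrophages. RefSeq windows (GRCm38.p6, 250 bases before to 50 after the start) were at hand for 7 of the 10 genes. The letters GAGGAA, read on both strands, were in the windows of 2 of these 7 genes, whereas 28.3% of all 32851 promoter windows hold them. The letters TTNNGNAA, after sites of the C/EBP family, were in those of 4 of the 7 genes, against 40.7% of all windows, and TGCTGA, after MAF sites, in 3 of the 7, against 19.5%. A match is a description of letters only. Printed are the 250 bases before the start on the strand of the gene, 5′ to 3′, for Fcgr1 at chr3:96293970-96294219 (minus strand) and Mrc1 at chr2:14229164-14229413 (plus strand). Capitals mark the matches, here read on the other strand as TTCCTC.
Fcgr1: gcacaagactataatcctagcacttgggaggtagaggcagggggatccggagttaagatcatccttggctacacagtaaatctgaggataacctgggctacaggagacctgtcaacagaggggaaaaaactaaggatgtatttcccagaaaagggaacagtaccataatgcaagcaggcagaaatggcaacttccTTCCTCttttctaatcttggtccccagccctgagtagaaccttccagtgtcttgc
Mrc1: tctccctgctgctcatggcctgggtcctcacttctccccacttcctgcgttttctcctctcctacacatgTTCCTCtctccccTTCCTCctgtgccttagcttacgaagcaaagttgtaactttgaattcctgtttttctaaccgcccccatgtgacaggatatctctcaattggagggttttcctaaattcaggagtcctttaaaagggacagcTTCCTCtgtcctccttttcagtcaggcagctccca
Counted from the start of the gene, the match of Fcgr1 begins at base -55, and those of Mrc1 begin at bases -180, -167 and -35.

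Cd163, the scavenger receptor that takes up haemoglobin bound to haptoglobin, separated RV from both other regions. Its RV levels were 1.30, 1.52, 1.29 and 1.43. The LV levels were 0.76, 1.20 and 0.89, and the septum levels were 0.61, 1.06 and 0.49. Each RV array lay above each LV and each septum array. The difference was 0.44 ± 0.15 (SE) for RV minus LV, with an adjusted p of 0.148 without a block, 0.0588 with slide as a block and 0.0262 with the replicate block. For RV minus septum it was 0.66 ± 0.15 (SE), or 1.59-fold, with an adjusted p of 0.0648 without a block, 0.0235 with slide as a block and 0.0132 with the replicate block. A second Cd163 probe was well above background on all 4 RV arrays but on only 1 of 3 LV and 1 of 3 septum arrays. It was measured throughout in RV alone, so its difference is not given.

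Lyz2 encodes lysozyme M, an antibacterial enzyme that neutrophils and monocytes make too. Its near-identical neighbour Lyz1 can bind to similar probes, so the value is uncertain to that extent. Its RV levels were 1.96, 2.21, 1.96 and 1.95. Those of LV were 1.80, 2.10 and 1.25, and those of septum were 1.76, 2.17 and 1.34. As in Fcgr1, the arrays numbered 2 were the highest of each region, and the regions overlapped. The difference was 0.30 for RV minus LV (adjusted p of 0.521) and 0.26 for RV minus septum (adjusted p of 0.693). Within slide 1 these were 0.13 and 0.12, and within slide 2 they were 0.71 and 0.61.

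Lyve1, Timd4 and Folr2 mark the long-lived resident cells, and each was called in both comparisons with RV when slide was a block. Lyve1 binds hyaluronan and is also made by lymphatic endothelium. Its RV levels were 1.56, 1.57, 1.45 and 1.01, against 1.13, 0.98 and 0.28 in LV and 1.02, 1.05 and 0.12 in septum. On each slide the RV arrays lay above the others, although RV array 4 of slide 2 overlapped with LV and septum arrays of slide 1. The difference was 0.60 ± 0.28 (SE) for RV minus LV, or 1.52-fold, with an adjusted p of 0.268, and with slide as a block it was 0.71 ± 0.14 (SE), with an adjusted p of 0.0137. For RV minus septum it was 0.67, with an adjusted p of 0.317 without a block and 0.0147 with slide as a block.

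Timd4 is a receptor for phosphatidylserine on dying cells. Its RV levels were -1.36 and -1.33 on slide 1 and -2.21 and -2.17 on slide 2. In LV they were -1.84 and -1.98 on slide 1 and -2.45 on slide 2, and in septum -1.80 and -1.74 on slide 1 and -2.42 on slide 2. RV was the highest region on each slide, but the drop from slide 1 to slide 2 (-0.70 ± 0.063, SE, with region in the model) was larger than any difference between regions in this gene. The RV minus LV difference was 0.32 ± 0.28 (SE) with an adjusted p of 0.584, and with slide as a block it was 0.44 ± 0.074 (SE) with an adjusted p of 0.00725. The RV minus septum difference was 0.22 with an adjusted p of 0.803, and with slide as a block it was 0.34 with an adjusted p of 0.028. With the replicate block the latter missed the threshold, with an adjusted p of 0.0606.

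Folr2, a receptor for folate, had RV levels of 2.53, 2.56, 2.33 and 2.16. The LV levels were 1.93, 2.11 and 1.65, and the septum levels were 1.97, 2.16 and 1.41. All RV arrays lay above all LV arrays, and the lowest RV array and the highest septum array were nearly equal. The difference was 0.50 ± 0.19 (SE) for RV minus LV, or 1.41-fold, with an adjusted p of 0.178 without a block and 0.0069 with slide as a block. For RV minus septum it was 0.55, with an adjusted p of 0.217 and of 0.00689 with slide as a block. Within slides it was steady against LV, at 0.53 on slide 1 and 0.60 on slide 2.

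**Figure D2:**
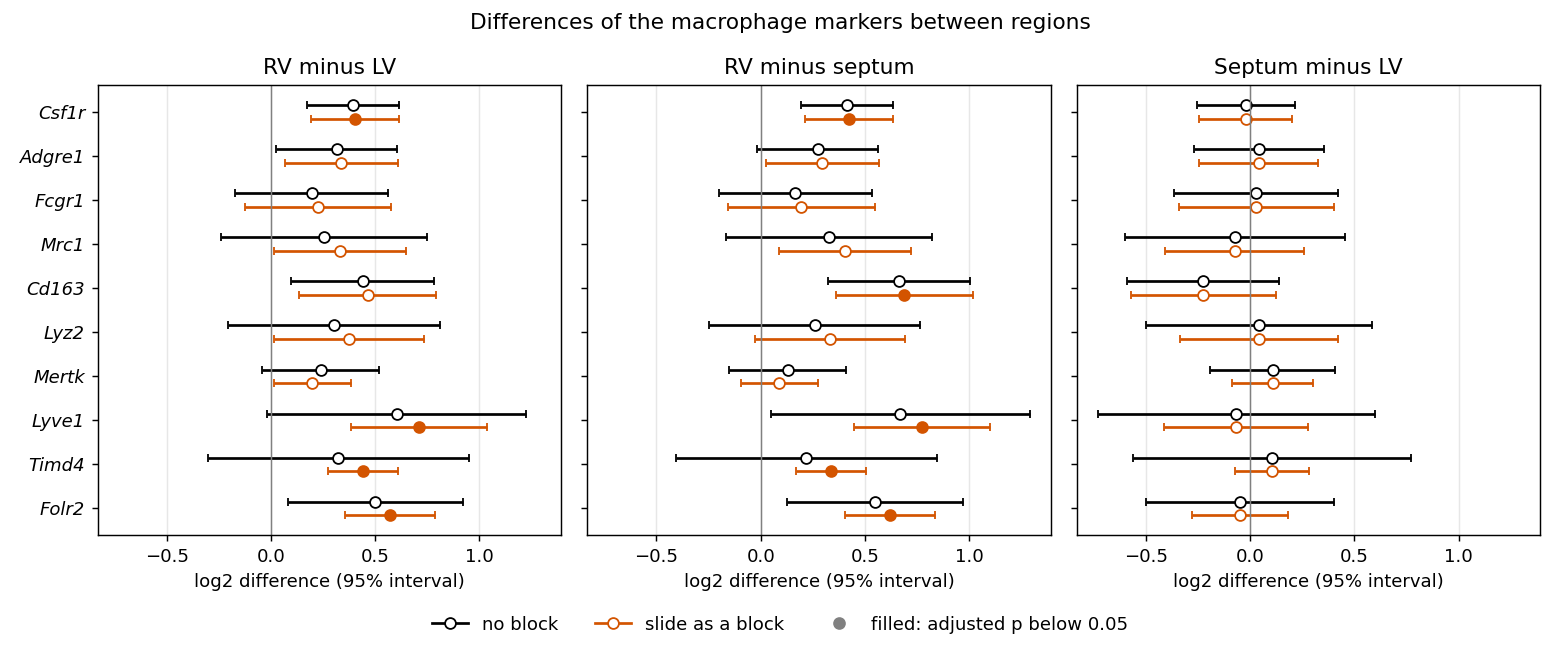
Log2 differences between regions of each of the 10 markers (x axis, with 95% intervals from limma) without a block (black) and with slide as a block (orange), where filled points passed an adjusted p of 0.05. All points lie above 0 for RV minus LV and RV minus septum, and 4 and 5 of them are filled with slide as a block.

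Over the array sets, every RV array lay above every LV array for 4 markers (Csf1r, Adgre1, Cd163 and Folr2), against 9.16% of all genes. Against septum this held for 2 (Csf1r and Cd163), against 6.94% of genes. In 0 markers did all septum arrays lie above all LV arrays, against 3.62% of genes. The order of the means was RV, septum, LV in 5 markers and RV, LV, septum in the other 5. The step between septum and LV was within its error in each, with 95% intervals that all held 0. Without a block the widest of these was that of Timd4, from -0.56 to 0.77. A difference within this range could not be told from 0 in that fit. With slide as a block the Timd4 interval ran from -0.075 to 0.28.

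The markers tended to rise and fall together over the 10 arrays. Over the 45 pairs of markers the median Pearson correlation was 0.71, from -0.35 (Mrc1 and Mertk) to 0.96 (Lyve1 and Folr2), and 6 pairs were negative. These values share the arrays, the regions and the slides. After region means and slide were removed the median was 0.53 and 14 pairs were negative. Folr2 followed the mean of the other 9 most closely (r = 0.98) and Mertk did not follow it (r = -0.11). The mean of the 10 markers, each centred on its own mean over arrays, ran from 0.11 to 0.36 in RV, from -0.36 to 0.05 in LV and from -0.46 to 0.11 in septum, and LV array 3 and septum array 3 of slide 2 were the lowest. Genes well above background on all arrays (13623 compared) were ranked by likeness to this mean, with the 10 markers themselves left out. First of the 5 most alike were Fcgr2b (r = 0.994), which encodes an inhibitory immunoglobulin receptor, and the cathepsin gene Ctsc (0.983). The others were the chemokine gene Ccl9 (0.982), Alox5ap (0.98), which serves leukotriene synthesis, and Mgst1 (0.979).

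**Figure D3:**
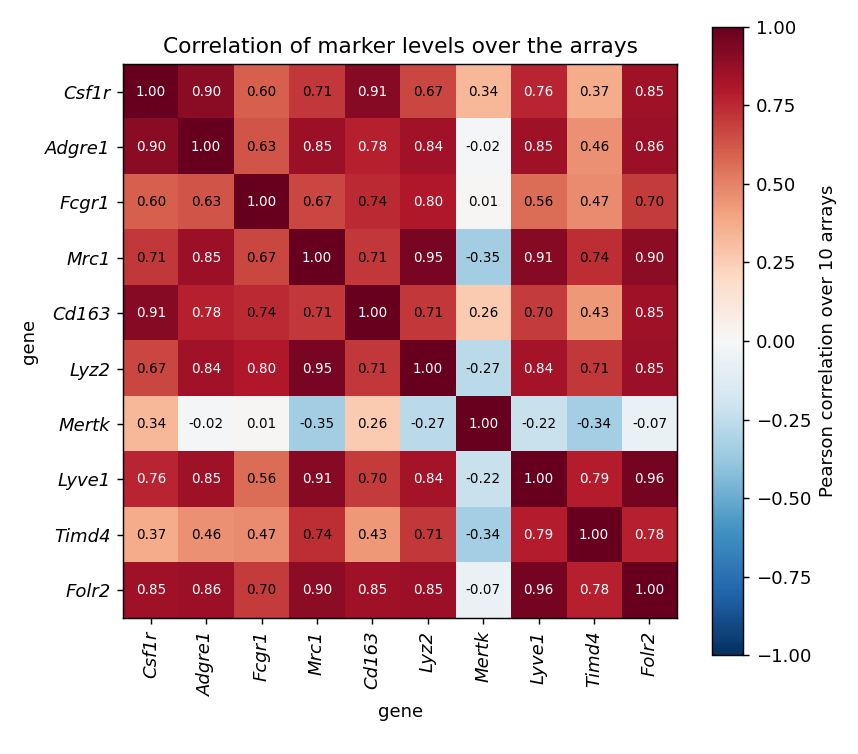
Pearson correlation of the levels of each pair of markers over the 10 arrays (both axes, genes; colour, correlation from -1 to 1). Mertk stands apart with correlations from -0.35 to 0.34, while Mrc1, Lyz2, Lyve1 and Folr2 correlate with each other at 0.835 to 0.956.

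The growth factors and bridging proteins that these receptors bind were compared next, from a list chosen with earlier results of these data known. Csf1 and Il34 are the ligands of Csf1r, and Gas6 and Pros1 bridge Mertk to dying cells. All 4 were measured on every array and 0 of 4 passed limma's adjusted test. At an unadjusted p below 0.05 there was 1 of 4 in each comparison with RV, against 22.8% of all genes for LV and 16.3% for septum. All 4 differences were nevertheless above 0 in both comparisons with RV, against 39.4% and 40.8% of all genes. Csf1 differed by 0.11 for RV minus LV, with a 95% interval from -0.31 to 0.53, and was split by slide, with RV levels of 2.44 and 2.44 on slide 1 and 2.81 and 3.04 on slide 2. Il34 differed by 0.44, of which RV array 2 held most, since its level was 0.73 there and at most -0.50 on every other array. Gas6 differed by 0.28 (adjusted p of 0.258) and Pros1 by 0.26 (adjusted p of 0.0946) for RV minus LV. With slide as a block these were 0.23 (adjusted p of 0.0206) and 0.25 (adjusted p of 0.0311), and both were then called, against 21.3% of all genes. For RV minus septum with this block they were 0.17 (adjusted p of 0.0922) and 0.16 (adjusted p of 0.155), and neither was called.

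Of 6 transcription factors of macrophages, 5 were tested and 0 were called by limma without a block. In each comparison with RV, 2 had an unadjusted p below 0.05, against 22.8% of all genes for LV and 16.3% for septum. Spi1, which encodes PU.1, was not well above background on any array. Zeb2 had RV levels of 0.81, 0.83, 1.14 and 1.11, against 0.51, 0.67 and 0.71 in LV and 0.53, 0.44 and 0.63 in septum. All RV arrays of Zeb2 lay above the others, and its differences were 0.35 and 0.44 (adjusted p of 0.114 and 0.083). With slide as a block these were 0.31 and 0.41 and both were called (adjusted p of 0.0154 and 0.0085), against 21.3% and 11.1% of all genes. Maf differed by 0.34 (adjusted p of 0.121) and Irf8 by 0.17 (adjusted p of 0.75) for RV minus LV. Nr1h3, which encodes the sterol receptor LXR alpha, went the other way, with -0.23 (adjusted p of 0.282).

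A list of 27 further macrophage genes was taken with the markers. Of the 26 tested, 1 was called higher in RV than in LV and 1 higher than in septum, against 3.14% and 1.68% of all genes. In both cases this was Stab1, a scavenger receptor of tissue macrophages and sinus endothelium. Its levels were 3.02, 3.11, 3.26 and 3.31 in RV, 2.61, 2.77 and 2.69 in LV and 2.62, 2.73 and 2.68 in septum. The difference was 0.48 ± 0.089 (SE) for RV minus LV, with an adjusted p of 0.0203, and 0.50 for RV minus septum, with an adjusted p of 0.0264. The median difference of the list was 0.27 for RV minus LV and 0.30 for RV minus septum. In each, 24 of 26 were above 0, against 39.4% and 40.8% of all genes. Vsig4, which was tested through RV alone, was among the 24. With slide as a block, 8 were called higher in each comparison: Tyrobp, C1qa, Pf4, Cbr2, Stab1, Trem2, Clec10a and Cd209f. Of all genes, 8.82% were then called higher in RV than in LV and 5.34% higher than in septum. Cd209f, a lectin of resident macrophages, had the largest difference of the list, with 1.11 for RV minus LV (adjusted p of 0.117) and 1.14 for RV minus septum (adjusted p of 0.165), and with slide as a block 1.23 and 1.26. The lowest were Siglec1 with -0.13 for RV minus LV and Itgam with -0.05 for RV minus septum, and neither was called. Itgam was highest on LV array 3 (6.38) and septum array 3 (6.40), where the mean of the markers was lowest. Whether its probe follows macrophages was not tested.

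Genes of monocytes and recruited macrophages were mixed. Of 9 tested, 1 was called higher in RV than in LV, namely Itgax (CD11c), and 0 were called against septum. At an unadjusted p below 0.05 (limma, either direction) there were 6 against LV and 3 against septum, beside 22.8% and 16.3% of all genes. Itgax was well above background on all 4 RV arrays, on 1 of 3 LV arrays and on 2 of 3 septum arrays. A probe was tested where at least 1 region had it well above background on all arrays, so Itgax entered the test through RV alone, where it is high, and its call is not independent of that filter. Cd209a, well above background on 4 RV, 1 LV and 2 septum arrays, entered through RV alone as well. Ccr2, the receptor that draws monocytes into tissue, had RV levels of -1.78, -2.16, -1.27 and -1.03. In LV its levels were -2.34, -2.27 and -2.69, and in septum -2.36, -2.83 and -2.84. RV lay above both other regions on every array, with a difference of 0.87 against LV (adjusted p of 0.0967, and 0.0592 with slide as a block) and of 1.12 against septum (adjusted p of 0.0663, and 0.0392 with slide as a block). Ly6c1, which blood vessels make as well, had the lowest difference in both comparisons, with -0.39 against LV (adjusted p of 0.213) and -0.36 against septum (adjusted p of 0.359). Once slide was a block, Ly6c1 and Ly6c2 were called lower in RV than in LV, and Itgax and Plac8 higher.

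Some markers of other cell types were higher in RV as well, and their part in the differences of the macrophage markers was not tested. Of all genes tested, 3.14% were called higher in RV than in LV and 1.68% higher than in septum. Of 7 adipocyte genes tested, 4 were called higher in RV than in LV (Adipoq, Cidec, Plin1 and Retn) and 2 higher than in septum (Cidec and Plin1). Only these 4 of the 7 had a difference above 0 in either comparison, and Lep, Plin4 and Pnpla2 were below 0 in both. Adipoq was not well above background on any LV array and was at least 14.5-fold higher in RV, with an adjusted p of 0.00377, and Plin1 was likewise at least 4.34-fold higher. Plin1 was well above background on 1 of 3 septum arrays as well, so it was tested through RV alone and its calls are not independent of the filter. The mean level of this list, each gene centred, ran from 0.79 to 1.22 in RV, from -1.56 to -0.87 in LV and from -0.44 to 0.42 in septum. Of 8 mesothelium genes, which mark the outer lining of the heart, 0 were called between RV and LV and 7 were called higher in RV than in septum. Of these, Msln was well above background on every array and differed by 3.96 (adjusted p of 0.0247), while Lrrn4 (1 of 3 septum arrays) and Bnc1 (0 of 3) were tested through RV alone, so their calls are not independent of the filter. At an unadjusted p below 0.05, 7 of the 8 differed between RV and LV, against 22.8% of all genes. Once slide was a block, 7 were called higher in RV than in LV, against 8.82%. That list ran from 0.48 to 1.998 in RV, from -0.70 to 0.11 in LV and from -2.75 to -0.84 in septum. Of 7 fibroblast genes, 3 were called higher in RV than in LV (Tcf21, Dcn and Pdgfra) and 1 higher than in septum (Tcf21, 0.52), and all 7 differences were above 0 in each. That list ran from 0.04 to 0.58 in RV, from -0.44 to -0.22 in LV and from -0.18 to 0.05 in septum. For septum minus LV the median differences were 1.33 (adipocyte), -1.86 (mesothelium) and 0.22 (fibroblast), beside 0.0032 for the macrophage markers.

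The lists of other blood, vessel and muscle cells held 0 called genes (limma) in either comparison with RV without a block. At most 3 of a list had an unadjusted p below 0.05, against 22.8% of all genes for LV and 16.3% for septum. Once slide was a block, Pecam1 was called higher and Cdh5, Kdr, Actc1 and Ryr2 lower in RV than in LV, and the mast cell protease gene Cma1 higher in RV than in septum. The lymphatic endothelium list was read because Lyve1 and Mrc1 are made there too, and 5 of its 6 genes were tested. The median differences were -0.06 for RV minus LV and -0.13 for RV minus septum. In each comparison 1 gene had an unadjusted p below 0.05 (limma). Mmrn1 alone was above 0 against LV (0.42), and Mmrn1 (0.45) and Reln were above 0 against septum. The RV levels of Mmrn1, at 0.24, 0.32, 0.40 and 0.44, lay above its highest LV level of 0.13. They overlapped with septum, where array 1 had a level of 0.27. Prox1 was tested, with mean levels of 2.37 in RV, 2.54 in LV and 2.52 in septum, and Flt4 did not pass the filter. Whether these genes follow lymphatic endothelium in RNA of the whole wall was not tested. For neutrophils, which also make Lyz2, 4 of the 6 genes on the array were tested and the median differences were -0.04 and -0.22, while Cxcr2 was not well above background on any array. Csf3r, 1 of these 4, had levels from 7.05 to 7.37, and whether its probe follows neutrophils was not tested. The median differences of RV minus LV and RV minus septum were 0.22 and 0.07 over 7 lymphocyte genes and 0.21 and 0.95 over 5 mast cell genes. Over 7 genes of blood endothelium they were -0.09 and -0.01, over 8 cardiomyocyte genes -0.09 and 0.02, and over 4 genes of red blood cells -0.14 and 0.16. The defining genes of heart muscle were well above background on all 10 arrays. The mean level of the cardiomyocyte list ran from -0.08 to 0.03 in RV, from -0.02 to 0.15 in LV and from -0.11 to 0.12 in septum.

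**Figure D4:**
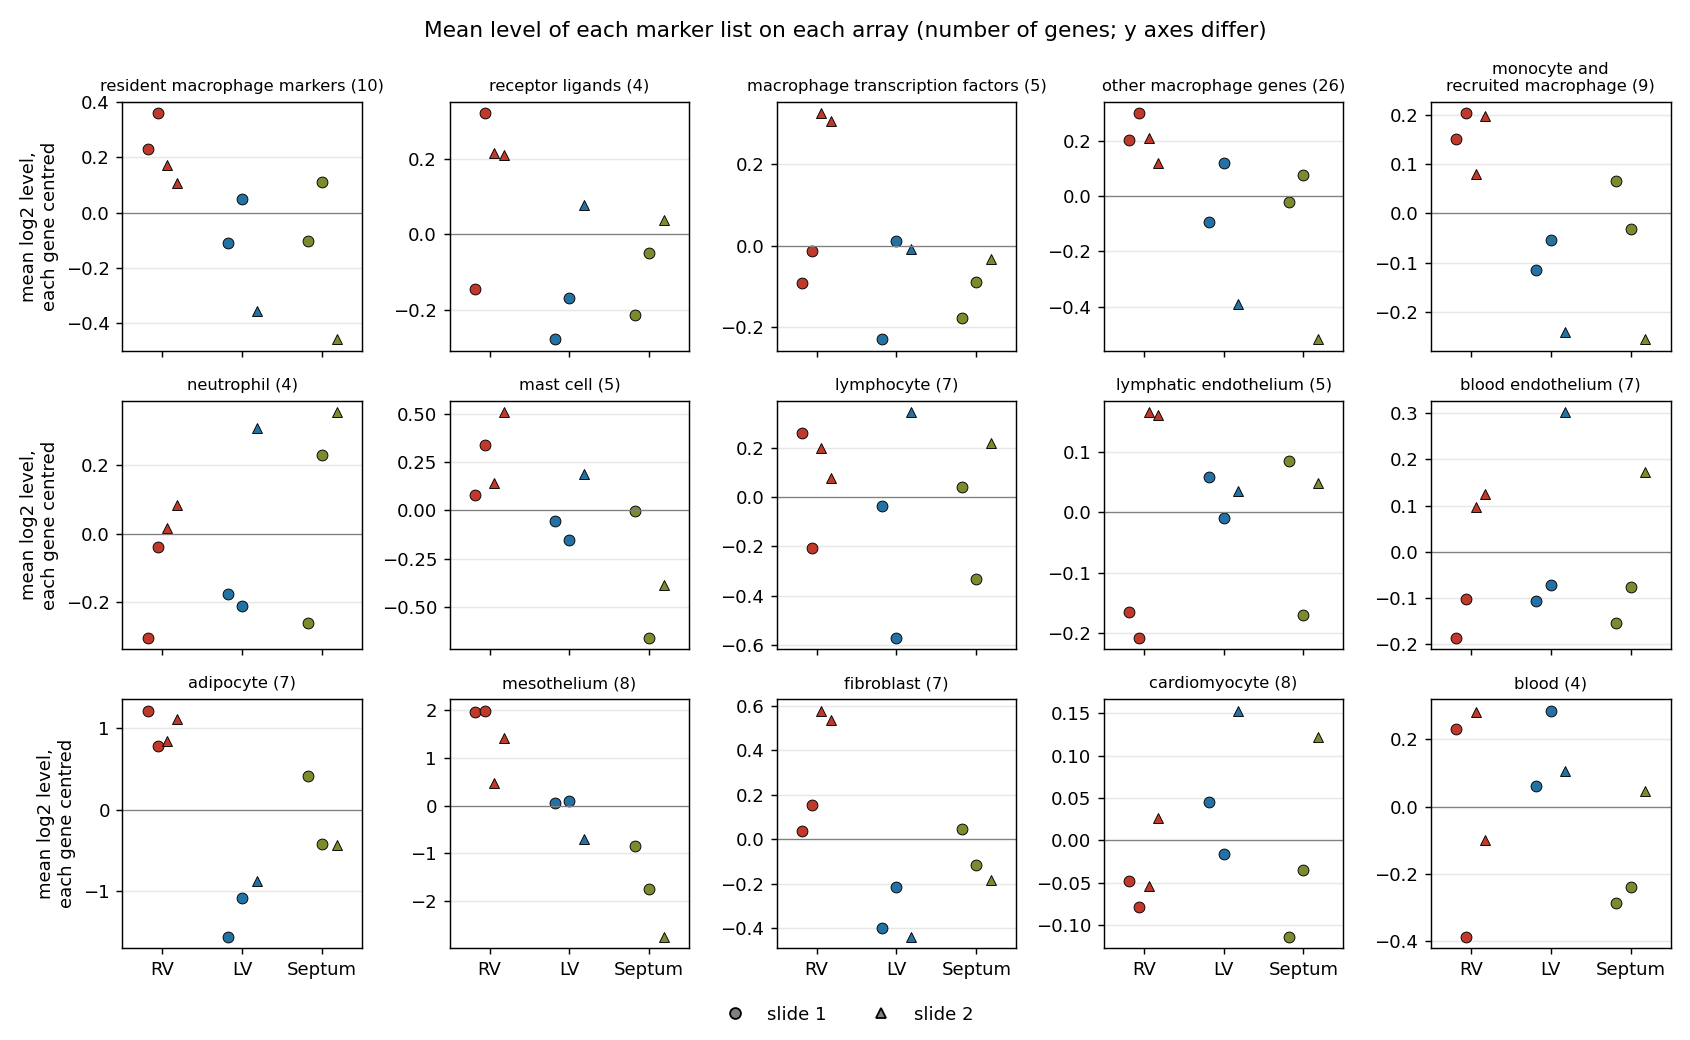
Mean log2 level of each marker list on each array, each gene centred on its mean over all arrays (y axes differ between panels), by region, with circles for slide 1 and triangles for slide 2 and the number of genes tested in parentheses. All RV arrays lie above all other arrays in the panels of other macrophage genes, monocytes, adipocytes and mesothelium. Each of these panels includes genes tested through RV alone (Vsig4, Itgax and Cd209a, Plin1, Lrrn4 and Bnc1), so this separation is not independent of the filter. In the panel of other macrophage genes the lowest RV array (0.120) and LV array 2 (0.118) are nearly level. In the monocyte panel the separation is small as well, with 0.081 on the lowest RV array and 0.065 on septum array 1. In the panel of the 10 markers septum array 2 (0.11) is level with the lowest RV array.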

How the data were processed

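Total RNA of RV, LV and septum was labelled with Cy3 and hybridised to Agilent SurePrint mouse arrays, 1 sample per array. The authors made the deposited intensity values with Agilent Feature Extraction (version 11.5.1.1 in the submitters' processing notes), which subtracts the background and flags spots, with no scaling between arrays. For RV array 1 the signals were rounded in a later save. A deposited table of log2 values, made by the authors with GeneSpring, has the 75th percentile of each array near 0. After a constant was removed it lay within 0.05 of the values used here for 100% of the probes, and it served as an alternative.

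Groups and replicate numbers came from the sample titles. Spots flagged as controls or outliers (56 to 128 outliers on an array) were dropped, log2 of the processed signal was averaged per probe, and the 75th percentile of the array (717.8 to 1003.6 in signal) was subtracted. A probe was tested where 1 or more regions had it well above background on all their arrays (30234 of 56605). Symbols came from RefSeq accessions and a gene table of GRCm38.p6 (32994 probes, 22911 genes). The array files name another build, so no gene coordinates are given. Promoters are from the RefSeq table, in which 7 of the 10 markers were found. Csf1r, Adgre1 and Lyve1 were the others.

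The comparison of regions used lmFit and eBayes of limma (3.58.1, under R 4.3.3; two-sided) in 1 model of all 10 arrays with no covariate, with Benjamini-Hochberg adjustment over all probes tested and calls at 0.05. Analysis of variance with Tukey's test, which the methods give, was an alternative. So were quantile normalization, scaling by median or by the percentile of detected probes, normexp (offset 50, on the median signal, because the files hold no mean signal), the authors' table, no filter, slide as a block or alone, the replicate number as a block, all probes of a gene, only the groups compared, and each array left out. The fits were tested on simulated data. The 9 pairs of arrays with the same number had deviations from the region means that correlated at 0.36 to 0.64, over the limit of 0.1 set for pairing. Arrays with different numbers on the same slide correlated at 0.09 to 0.58, and the labels do not say what a number stands for. The markers and the 14 other gene lists were chosen with earlier results of these data known. Of each list, named genes were up to 4 called ones with the largest difference and the lowest and highest, and all ligands and transcription factors, and not all of these are reported. The genes called with slide as a block, and Prox1, Flt4, Cxcr2, Lep, Reln and Cd209a, were named after their values were seen. A fold against a region with no array above background is a lower bound, set by the lowest signal well above background on each of its arrays or the probe's own if higher.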

Additional observations from a re-analysis of the deposited data

Results flagged for a closer look

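In the 4 RV arrays, Lyz2 was set apart by RV array 2, whose level of 2.21 lay above 1.96, 1.96 and 1.95 on the others. The gap to the nearest array was 0.959 of the whole range, above Dixon's 95% critical value for 4 arrays. All 10 markers were looked at in this way in RV, and chance flags about 1 in 20 groups.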

How the results depend on the processing

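All 10 markers were higher in RV than in LV under each of the 23 limma alternatives, and higher than in septum under 22 of them, with Mertk within slide 2 as the exception. Counts of called markers moved more. Between RV and LV, 0 markers passed in the comparison without a block. There was 1 with quantile normalization (against 4.16% of all genes), 1 with the percentile of detected probes (4.91%), 1 with normexp (4.87%), 4 with slide as a block (21.3%), 5 with the replicate block (17.9%), 4 with that block as a random effect (22.5%) and 1 with the methods' test before adjustment over probes (16.1%). Between RV and septum the count rose from 0 to 1 with scaling by the median (2.03%), 2 with normexp (2.75%), 5 with slide as a block (11.1%), 3 with the replicate block (8.7%), 4 with it as a random effect (12.8%) and 2 with the methods' unadjusted test (11.3%). Over the 3 regions (F test) it rose from 0 (against 3.67% of genes) to 1 with normexp (3.7%), 5 with slide as a block (15.8%), 3 with the replicate block (10.9%), 4 as a random effect (17.7%) and 2 with the methods' unadjusted test (19.5%). After Benjamini-Hochberg adjustment the methods' test called 0. Between septum and LV 0 markers were called under each alternative. With 1 array left out, the counts ran from 0 to 1 for RV against LV, RV against septum and the F test, and the medians from 0.28 to 0.41 and from 0.18 to 0.48. Without septum array 2, Cd163 passed against septum (0.84, adjusted p of 0.0494), and without septum array 3, Csf1r passed against LV (adjusted p of 0.0446). The median difference of RV minus septum was 0.65 in slide 2 alone, against 0.30. The share of all genes with a difference above 0 for RV minus LV, 39.4%, ran from 35.5% with scaling by the median to 50.8% with the percentile of detected probes. That percentile also moved the share of called genes that were higher in RV from 63.1% to 77.1%, and scaling by the median moved it from 62.3% to 75.4% against septum. Between septum and LV, 2 of 10 markers rather than 5 were above 0 with scaling by the median. The causes of these changes were not tested. Signal over background limits the second Cd163 probe, Itgax and Cd209a, which were not well above background on every LV and septum array.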
